A study of Mus musculus with 10 samples.

Results

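Gluconeogenesis and glucagon response genes were read in RNA-seq libraries of liver from diabetic *db/db* mice, which lack a working leptin receptor. The set held 9 genes, taken by symbol from the 15126 genes of the deposited table with 1 row each: the enzymes *Pck1*, *Fbp1* and *G6pc*, the transporter *Slc37a4*, the receptor *Gcgr*, the coactivators *Crtc2* and *Ppargc1a*, and the transcription factors *Foxo1* and *Creb3l3*. Their levels are described in the 5 AAV8-Control livers, in which adeno-associated virus 8 (AAV8) had delivered eGFP, a fluorescent protein. These mice were 10 weeks old and 5 weeks past infection. The promoter in the vector is not given in the sources used here, nor is whether the mice had been fed or fasted when the livers were taken. The labels call the samples both liver tissue and primary hepatocytes, and the study describes liver. No lean and no uninfected liver was at hand for comparison, so the levels are those of virus-infected *db/db* liver alone. No test between groups is given.

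Gluconeogenesis is the route by which the liver makes glucose from lactate, amino acids and glycerol in fasting. Glucagon binds its receptor on hepatocytes and raises cAMP, after which protein kinase A activates the factor CREB and lets the coactivator CRTC2 enter the nucleus, where genes such as *Pck1*, *G6pc* and *Ppargc1a* are switched on. Insulin opposes this by sending FOXO1 out of the nucleus. In diabetes the route stays active although blood glucose is high.

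All 9 genes were expressed in the *db/db* livers, over a span from *Fbp1*, among the most abundant mRNAs of the table per length, to *Ppargc1a*, near the middle of it. *Pck1* and *Ppargc1a* varied most between livers and *Gcgr* least. Within most gene families the member of the set was the main form in these livers, while *Foxo1* stood below its relative *Foxo3*, and below *Foxo4* only when reads were divided by exon length.

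Levels are given as CPM, a gene's reads relative to the sum that the authors counted over all genes, on a scale common to the libraries. The 5 libraries held 19499795 to 35498596 counted reads (median 20769191), and the fewest reads behind any value of the 9 genes were 227, for *Ppargc1a*. Of 8 hepatocyte markers 7 were in the table, with a summed level of 100540 to 136328 CPM. Markers of macrophages (107 to 215 CPM), sinusoidal endothelium (105 to 199 CPM) and stellate cells (227 to 307 CPM) were present, those of cholangiocytes summed to 6.48 to 11.2 CPM, and those of adipocytes (1.24 to 11.6 CPM), pancreas (3.39 to 4.87 CPM, 1 of 5 in the table), lymphocytes (0.918 to 2.31 CPM) and neutrophils (0.338 to 1.52 CPM) were low. The table measures bulk RNA, in which fewer cells of a type and less RNA per cell cannot be told apart.

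The start regions of the genes are shown because the factors in the set act on DNA there. RefSeq promoters, which run from 250 bases before a start site to 50 bases after it on GRCm38.p6, were at hand for 8 of the 9 genes, 11 promoters in all and *Crtc2* was the gene without one. Printed below are the parts of 3 of them that lie before both the RefSeq start and the GENCODE start, for *Pck1* (chr2:173152823-173153047, forward strand, positions -250 to -26), *G6pc* (chr11:101367466-101367560, forward strand, positions -250 to -156) and *Ppargc1a* (chr5:51567727-51567975, reverse strand, positions -250 to -2), with -1 as the base before the RefSeq start. Capitals mark the core of the cAMP response element, TGACG or CGTCA on the other strand, and the insulin response element, TGTTTTG or CAAAACA on the other strand.
Pck1: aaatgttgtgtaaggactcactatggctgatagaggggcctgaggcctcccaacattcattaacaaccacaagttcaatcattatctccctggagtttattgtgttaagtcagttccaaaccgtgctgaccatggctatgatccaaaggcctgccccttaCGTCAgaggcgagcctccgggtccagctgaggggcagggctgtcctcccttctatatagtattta
G6pc: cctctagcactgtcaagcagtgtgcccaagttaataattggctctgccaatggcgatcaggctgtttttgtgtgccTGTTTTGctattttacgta
Ppargc1a: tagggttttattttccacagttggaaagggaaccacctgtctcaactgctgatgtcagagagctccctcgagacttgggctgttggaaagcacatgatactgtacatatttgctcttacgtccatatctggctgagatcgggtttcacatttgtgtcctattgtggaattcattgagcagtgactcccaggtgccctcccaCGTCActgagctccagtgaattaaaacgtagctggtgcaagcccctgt

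In these windows the CRE core began at position -90 of *Pck1* and -49 of *Ppargc1a*, and the insulin response element at position -174 of *G6pc*. Over whole windows the CRE core was in 5 of the 11 promoters, 2 of the 3 of *Slc37a4* and 1 of the 2 of *Creb3l3* among them. It was in 20.8% of all 32851 RefSeq promoters of this length. Those 2 windows of *Slc37a4* overlap and share a match, and by gene the CRE core was in 4 of 8. The insulin response element was in 2 of the 11, 1 of *G6pc* and 1 of *Creb3l3*, and in 6.28% of all promoters. The *Creb3l3* matches lie in the window of a start 6283 bases inside the gene, and those of *Slc37a4* lie past its GENCODE start. Before both starts, 2 genes held the CRE core (*Pck1* and *Ppargc1a*) and 1 the insulin response element (*G6pc*), and no share over all promoters was computed for these shorter stretches. Neither the full CRE palindrome TGACGTCA (1.79% of all promoters) nor the FoxO element TGTTTAC, searched on both strands as GTAAACA too (3.65%), was in any of the 11 windows. These are matches of letters, and no binding was measured. *Fbp1*, *Gcgr* and *Foxo1* held none of the 4 motifs in their windows.

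*Pck1* encodes cytosolic phosphoenolpyruvate carboxykinase, which turns oxaloacetate into phosphoenolpyruvate, and sits at 173153048 to 173159273 of chromosome 2 (GRCm38, forward strand, ENSMUSG00000027513). Replicates 1 to 5 held 1725, 1844, 1307, 2818 and 2185 CPM, a mean of 1976 ± 566 CPM (SD, n = 5 livers). Replicate 4 was the highest and replicate 3 the lowest, 2.16 times apart. On the log2(CPM + 1) scale 96.9% of the 11041 genes with a mean of 1 CPM or more had a smaller SD between these livers.

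*Fbp1* encodes fructose-1,6-bisphosphatase, the step that reverses phosphofructokinase, at 62864753 to 62888282 of chromosome 13 (reverse strand, ENSMUSG00000069805). Its livers held 2101, 1897, 1810, 1722 and 1786 CPM, with a mean of 1863 ± 147 CPM (SD, n = 5). Replicate 1 was the highest and replicate 4, the highest liver for *Pck1*, was the lowest.

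*G6pc* encodes the catalytic subunit of glucose-6-phosphatase, which frees glucose for export, at 101367561 to 101377903 of chromosome 11 (forward strand, ENSMUSG00000078650). Values were 447, 430, 421, 399 and 502 CPM (mean 440 ± 38.9 CPM, SD, n = 5). Replicate 5 lay above the other 4 livers, and replicate 4, which led in *Pck1*, was the lowest here too. *Slc37a4*, the transporter that carries glucose 6-phosphate to that phosphatase inside the endoplasmic reticulum, sits at 44396852 to 44402968 of chromosome 9 (forward strand, ENSMUSG00000032114). It was at 196, 233, 235, 225 and 188 CPM (mean 215 ± 22.0 CPM, SD, n = 5), and replicate 5, the highest for *G6pc*, was its lowest. The microRNA gene *Mir7085* lies within *Slc37a4*, and whether reads over it were left out was not tested.

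*Gcgr* encodes the glucagon receptor, at 120530699 to 120538986 of chromosome 11 (forward strand, ENSMUSG00000025127). It held 220, 215, 205, 209 and 220 CPM (mean 214 ± 6.71 CPM, SD, n = 5). With all 5 livers included this was the narrowest spread as a percent of the mean among the 9 genes. Of the genes with a mean of 1 CPM or more, 2.94% had a smaller SD on the log2 scale, a share not matched for level. An antisense gene, *Gm11789*, overlaps *Gcgr*, and the counting, which kept reads that fell on a single gene, is not stated to use strand. Whether reads over the shared part were left out of *Gcgr* was not tested. *Crtc2* encodes the CREB coactivator that glucagon signalling lets into the nucleus, at 90254163 to 90264125 of chromosome 3 (forward strand, ENSMUSG00000027936). Its values of 43.4, 38.2, 38.0, 37.1 and 40.5 CPM (mean 39.5 ± 2.55 CPM, SD, n = 5) were close together, with replicate 1 the highest.

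*Ppargc1a* encodes PGC-1α, a coactivator of FOXO1 and HNF4A on gluconeogenic genes, at 51454250 to 51567726 of chromosome 5 (reverse strand, ENSMUSG00000029167). It was at 11.6, 18.8, 21.9, 19.0 and 13.4 CPM (mean 17.0 ± 4.27 CPM, SD, n = 5), with replicates 1 and 5 low and replicate 3, the lowest for *Pck1*, the highest. Annotated over *Ppargc1a* are 4 unconfirmed transcripts, *Gm42613*, *Gm42614*, *Gm42615* and *Gm43605*. All but *Gm42613* lie on its strand, and whether reads over shared parts were left out of *Ppargc1a* was not tested.

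*Foxo1*, a forkhead factor held out of the nucleus by insulin signalling, sits at 52268336 to 52353221 of chromosome 3 (forward strand, ENSMUSG00000044167). The livers held 35.03, 35.8, 39.2, 36.5 and 32.8 CPM (mean 35.9 ± 2.34 CPM, SD, n = 5), with replicate 3 the highest and replicate 5 the lowest. The antisense gene *Gm20402* and, on the same strand, the unconfirmed transcript *Gm38034* overlap *Foxo1*. Whether reads over the shared parts were left out of *Foxo1* was not tested. *Creb3l3*, known too as CREBH, is a membrane-bound liver factor of the endoplasmic reticulum that is cut free in fasting, at 81084324 to 81098874 of chromosome 10 (reverse strand, ENSMUSG00000035041). It was at 227, 202, 211, 205 and 205 CPM (mean 210 ± 9.98 CPM, SD, n = 5), and replicate 1 stood above the other 4.

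**Figure D1:**
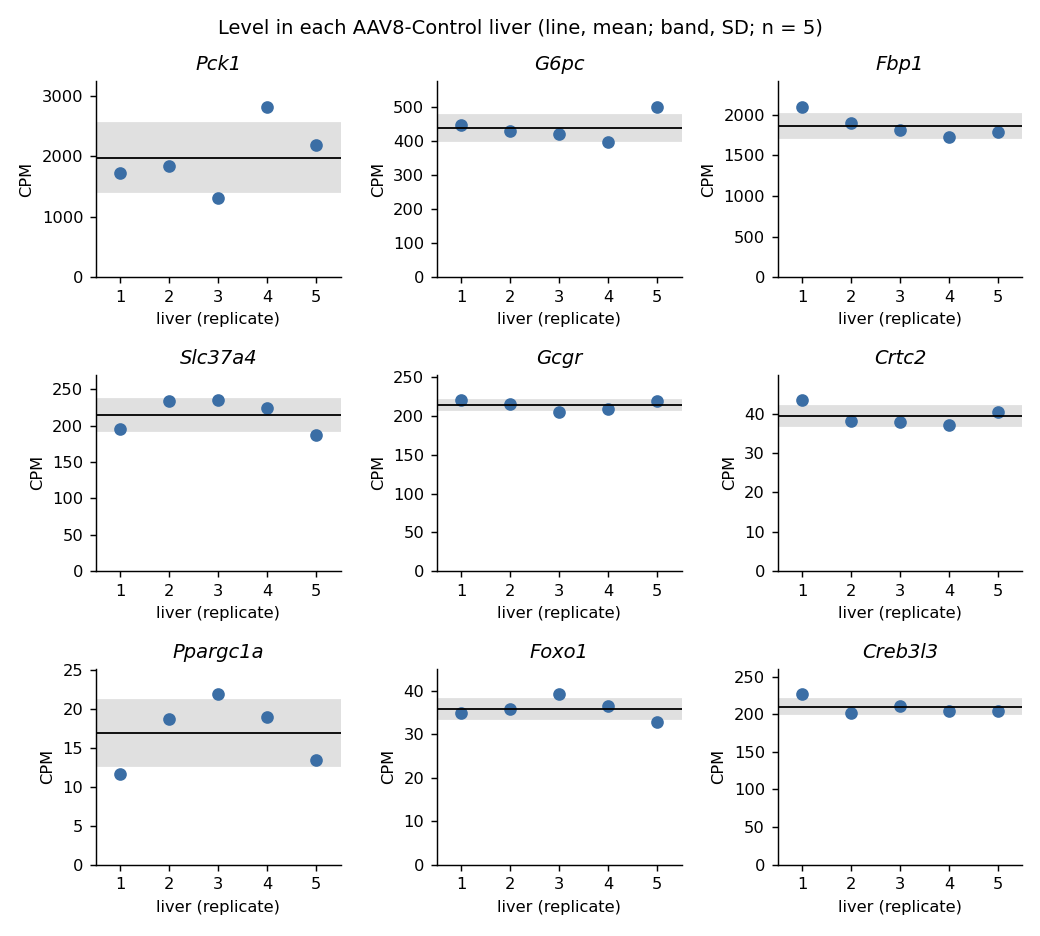
CPM of the 9 genes (y axes, starting at 0) in each of the 5 AAV8-Control livers (x axes, replicate number), with a line at the mean and a band of 1 SD. *Pck1* runs from 1307 to 2818 CPM and *Ppargc1a* from 11.6 to 21.9 CPM, while *Gcgr* stays between 205 and 220 CPM.

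The coefficient of variation, the SD as a percent of the mean, was 28.6% for *Pck1* and 25.2% for *Ppargc1a*, beside a median of 10.6% over the genes with a mean of 1 CPM or more. *Slc37a4* (10.2%), *G6pc* (8.84%) and *Fbp1* (7.88%) lay near or under that median. *Foxo1* (6.51%), *Crtc2* (6.47%), *Creb3l3* (4.76%) and *Gcgr* (3.14%) varied less. That median covers genes down to 1 CPM, whose counting error is larger, and no comparison matched for level was made. No coefficient was recomputed with a liver left out. The place of *Gcgr* below *Creb3l3* depends on replicate 1, where *Creb3l3* held 227 CPM beside 202 to 211 CPM in the other livers. No liver was the highest or the lowest for all of the genes. Replicate 4 was the lowest for *G6pc*, *Fbp1* and *Crtc2* and the highest for *Pck1*. Replicate 1 was the highest for *Fbp1*, *Crtc2*, *Creb3l3* and *Gcgr* and the lowest for *Ppargc1a*. For *Gcgr* its lead over replicate 5 was slight (220.3 against 220.2 CPM). Replicate 3 was the highest for *Slc37a4*, *Ppargc1a* and *Foxo1* and the lowest for *Pck1* and *Gcgr*. Replicate 5 was the highest for *G6pc* and the lowest for *Slc37a4* and *Foxo1*, and replicate 2 was the lowest for *Creb3l3*. With 5 livers no correlation between genes was computed.

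Divided by the length of a gene's exons in kb, taken as the union over all its annotated transcripts, levels can be ordered between genes. Livers that use shorter transcripts than this union would have a higher level than the one given. *Fbp1* led at 1095 ± 86.3 CPM per kb, above 99.6% of the 11036 genes with a mean of 1 CPM or more and a known length. *Pck1* followed at 576 ± 165 CPM per kb (above 99.4%), and *G6pc* at 182 ± 16.1 CPM per kb (above 97.9%). *Gcgr* was at 81.7 ± 2.56, *Slc37a4* at 75.3 ± 7.71 and *Creb3l3* at 69.5 ± 3.31 CPM per kb. *Crtc2* was at 9.64 ± 0.624, *Foxo1* at 4.14 ± 0.270 and *Ppargc1a* at 2.57 ± 0.648 CPM per kb (SD, n = 5 livers throughout), the last above 43.8% of those genes. The ranges of *Gcgr* and *Slc37a4* overlapped, with *Gcgr* higher in 4 of 5 livers, as did those of *Slc37a4* and *Creb3l3*, with *Slc37a4* higher in 3 of 5. The ranges of all other neighbours in the order were apart, and the higher gene led in 5 of 5 livers. In CPM, with no division by length, 5 of the 9 genes kept their place: *Fbp1* was above *Pck1* in 3 of 5 livers with the lower mean, *Gcgr* above *Slc37a4* in 2 of 5 and *Crtc2* above *Foxo1* in 4 of 5. Per kb the widest step was from *Creb3l3* to *Crtc2*, a ratio of means of 7.21.

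**Figure D2:**
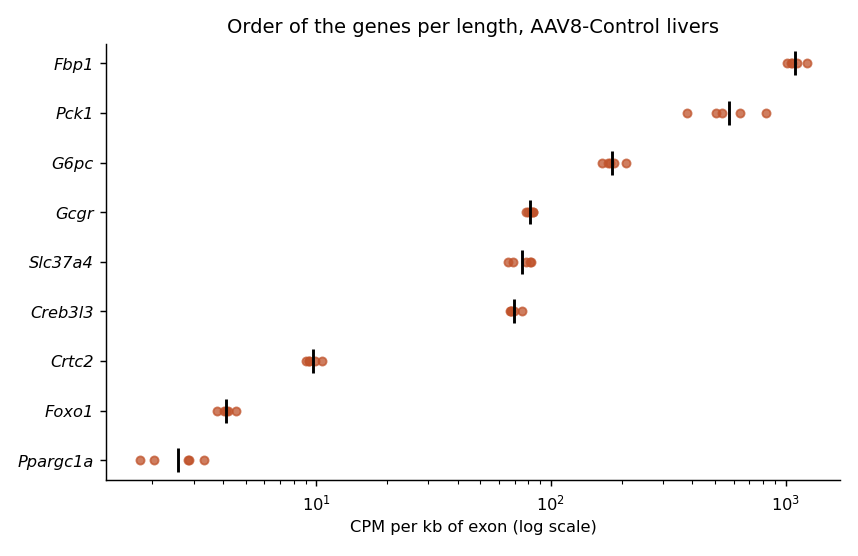
Level of the 9 genes per length (x axis, CPM per kb of exon, log scale; genes on the y axis in order of their means), with 1 point per AAV8-Control liver and a black bar at the mean. The enzymes stand at the top, the points of *Slc37a4* in the middle overlap those of *Gcgr* above and *Creb3l3* below, and *Ppargc1a* is the lowest at 2.57 CPM per kb. In CPM the order of *Fbp1* and *Pck1* and of *Gcgr* and *Slc37a4* turns.

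Of the set 7 genes, all but *Gcgr* and *Slc37a4*, were set beside relatives. Genes that overlap these relatives were not looked up. *Pck2*, the mitochondrial carboxykinase, was at 0.428 ± 0.0417 CPM per kb, and *Pck1* was 1025 to 1742 times as high in the same liver, or 450 to 765 times in CPM, with no division by length. *Fbp2*, the muscle bisphosphatase, had 1 to 4 reads per library, and *G6pc2*, the pancreatic islet form, had 0 to 3. *G6pc3*, the form found in most tissues, was at 3.58 ± 0.458 CPM per kb, with *G6pc* 42.1 to 62.2 times as high. The CREB coactivators *Crtc1* (1.16 ± 0.186 CPM per kb) and *Crtc3* (1.17 ± 0.188 CPM per kb) were below *Crtc2*, which was 7.41 to 9.83 times *Crtc1* and 7.33 to 9.70 times *Crtc3*. In CPM these ratios were smaller, 2.71 to 3.60 and 3.05 to 4.03. These families thus had their member of the set as the main mRNA in 5 of 5 livers.

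*Ppargc1b*, the sister coactivator PGC-1β, was at 1.37 ± 0.578 CPM per kb, and *Ppargc1a* was higher than it in 4 of 5 livers, with a ratio of 0.875 to 2.89, the lowest in replicate 1. In CPM *Ppargc1a* was the higher in 5 of 5 livers, replicate 1 included (11.6 against 8.05 CPM). *Foxo1* was below *Foxo3* (8.06 ± 0.300 CPM per kb) and *Foxo4* (6.95 ± 0.481 CPM per kb) in 5 of 5 livers, at 0.482 to 0.589 times *Foxo3* and 0.515 to 0.728 times *Foxo4*. The order against *Foxo4* turned with the scale: the exons span 8665 bases in *Foxo1* and 3485 in *Foxo4*, and in CPM *Foxo1* (35.9) was above *Foxo4* (24.2) in 5 of 5 livers. Against *Foxo3* (61.0 CPM) it was below on both scales. *Foxo6* had 0 to 2 reads per library. *Creb3l3* at 69.5 CPM per kb was set beside its closest relatives, the membrane-bound CREB3 factors, and was 4.69 to 5.72 times *Creb3* (13.6 ± 0.535 CPM per kb) and 18.8 to 31.3 times *Creb3l2* (2.85 ± 0.518 CPM per kb), or 7.79 to 12.98 times *Creb3l2* in CPM. *Creb3l1* was lower still (0.657 ± 0.137 CPM per kb), and *Creb3l4* had 3 to 7 reads per library. Of the more distant CREB subfamily, it stood above *Atf1* (4.87 ± 0.303), *Crem* (2.66 ± 0.385) and *Creb1* (0.833 ± 0.137 CPM per kb, SD, n = 5). *Creb3l3* was at 65.2 to 109 times *Creb1* per kb and 14.3 to 23.9 times in CPM. mRNA levels say nothing of how much of these factors was active or nuclear.

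**Figure D3:**
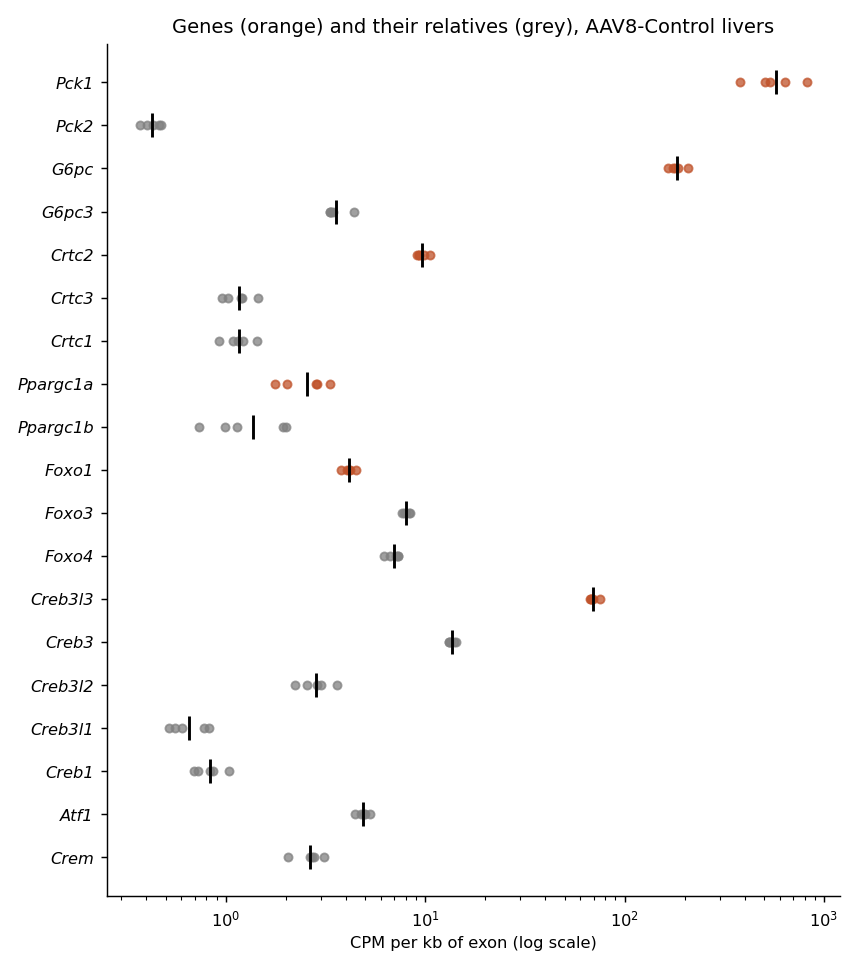
Level per length (x axis, CPM per kb of exon, log scale) of members of the set (orange) and their relatives (grey) in the 5 AAV8-Control livers, with a black bar at the mean and 1 point per liver. *Pck1*, *G6pc* and *Crtc2* lie apart from their relatives, *Foxo1* lies under *Foxo3* and *Foxo4* (in CPM it is above *Foxo4*), and the points of *Ppargc1a* overlap those of *Ppargc1b* (in CPM they do not).

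The wider pathway was read from 4 lists. Along the gluconeogenic route 27 of 29 genes had a mean of 1 CPM or more, as did 73.0% of all genes in the table, with a median of 82.8 CPM per kb beside 3.24 over all such genes. On this list *Tat*, a tyrosine aminotransferase (603 CPM per kb), lay between *Fbp1* and *Pck1*. Of the genes of the glucagon receptor and cAMP signalling 36 of 42 passed (85.7%), with a median of 2.21 CPM per kb. *Gcgr* led that list, ahead of *Adra1b*, an adrenergic receptor (29.8 CPM per kb), and *Prkaca*, a catalytic subunit of protein kinase A (28.0 CPM per kb). Of the transcriptional regulators 23 of 24 passed (median 6.95 CPM per kb), and *Creb3l3* came next after *Cebpa* (129 CPM per kb) and *Hnf4a* (128 CPM per kb), both hepatocyte factors. Of targets of cAMP and fasting 14 of 16 passed (median 8.13 CPM per kb), and *Pck1* and *G6pc* came after *Tat*. Among genes with a mean of 1 CPM or more, the median coefficient of variation was 26.9% for these targets and 10.2% for the route. It was 11.7% for receptor and cAMP signalling and 10.9% for the regulators, beside 10.6% over all genes that passed. The lists share genes with each other and with the set, and nothing particular to a list was tested.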

How the data were processed

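Livers of *db/db* mice were sequenced as single reads. Per the study's methods and the submitters' processing notes, the authors aligned reads with STAR 2.0.4b to GRCm38.p2 and counted them on genes with featureCounts 1.4.5 (Subread). The authors deposited CPM per gene, with 15236 lines for 15126 genes (110 repeated lines were identical and used once). Dividing by the CPM of 1 read gave whole reads for 100% of values (tolerance 0.01).

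From the 5 AAV8-Control libraries the mean, SD and range of each gene were computed in CPM and in CPM per kb of exon (union of exons over transcripts). GENCODE M21 (GRCm38) gave positions and exon lengths for 15119 genes, and promoters came from RefSeq (GRCm38.p6). The study names an Ensembl release for the alignment, so the exons on which reads were counted may differ from those used for length. No test between groups is given, since items needed for it are not reported here, and intended alternatives that concern such a test do not apply. The alternatives run were the size factors of DESeq2 1.42.0, TMM of edgeR 4.0.16 (R 4.3.3), each library left out and, chosen after seeing the data, CPM with no division by length. No 2 libraries were near duplicates (lowest chi-square per degree of freedom among the AAV8-Control livers 15.94). The precision of a value follows from its reads, given beside the lowest ones, and counting error is only part of the spread between livers.

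The members and lists were chosen with earlier results of these data known. The rule set for named genes took all 9 members, and the relatives and leading list genes were picked with their values known.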

Additional observations from a re-analysis of the deposited data

Results flagged for a closer look

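Of 22 genes of the set and their relatives examined for a single liver far from the rest, 1 stood out, where chance gives about 1 in 20. *G6pc3* in AAV8-Control replicate 1 was at 9.79 CPM and the other 4 livers at 7.44 to 7.70 CPM, a gap of 0.886 of the range. The cause was not tested.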

How the results depend on the processing

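Scaling by DESeq2 size factors or TMM moved a mean of the 9 genes by at most 0.529%, and leaving out a single liver by -10.7% to 8.46%. All 9 genes kept their place in the order per kb under these 7 alternatives, which could hardly have changed it. Scaling multiplies all genes of a liver alike, and leaving out a liver cannot reorder genes whose ranges are apart. An alternative chosen after seeing the data, CPM with no division by exon length, left 5 of 9 in place. It turned the mean log2 ratio of *Fbp1* to *Pck1* to -0.041, of *Gcgr* to *Slc37a4* to -0.0027 and of *Foxo1* to *Foxo4* to 0.57. No paired analysis was possible because the values given come from no test, the comparison between groups having been left out. The fewest reads behind a value of the 9 genes were 227, so depth limits *Ppargc1a* most, and values of *Fbp2*, *G6pc2* and *Foxo6* rest on 0 to 4 reads.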
